A study of Mus musculus with 20 samples.

Results

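Immediate early genes are transcribed within minutes of a stimulus, without new protein synthesis, and their RNA is widely read as a trace of recent neuronal activity. The 31 genes described here were listed by name as activity-induced immediate early genes. All 31 were found by symbol among the 19214 genes counted, and all 31 passed the filter on low counts, which left 14884 genes for testing. The RNA came from the BNST (bed nucleus of the stria terminalis) of mice, a forebrain nucleus that links the amygdala with the hypothalamus, and it was sequenced after selection of polyadenylated transcripts. The series holds 20 libraries in 4 groups of 5: female controls, male controls, and females and males labelled susceptible in a model of anxiety made by chronic restraint stress. The labels give no strain, age, number of stress sessions or interval between the last session and dissection, and name no genetic alteration. They do not say how susceptibility was scored or whether each library is a separate animal. P-values below therefore measure the spread between libraries, which may not be that between animals. No pair of libraries within a group agreed within sampling noise.

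Calcium entry through synaptic receptors and channels activates kinases that phosphorylate CREB and the partners of serum response factor, and these factors, already present in the resting neuron, start immediate early transcription at cyclic AMP response elements (CRE) and CArG boxes. Many of the first products are transcription factors themselves: AP-1 dimers of FOS and JUN proteins, zinc finger factors of the EGR family and orphan nuclear receptors of the NR4A family. Others act directly at the synapse or switch the signal off again. In the BNST, as in other stress-related nuclei, Fos RNA and protein are commonly used to map cells that respond to an acute stressor, and after repeated stress that response often declines.

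Promoter sequence was used for 23 of the 31 genes (RefSeq, GRCm38.p6), without Egr1, Egr3, Arc, Ier2, Klf10, Nptx2, Trib1 and Sik1. The 250 bases before each annotated start were searched on both strands. Sites farther from the start, CArG boxes among them, were not looked for. The CRE core TGACG occurred in 15 of the 23 genes (65.2%), against 19.8% of 27025 genes and 17.8% of 32851 windows of that length. The full element TGACGTCA, which contains the core on both strands, occurred in Dusp1, Btg2 and Maff (13%, against 1.77% of all genes). The EGR site GCGNGGGCG was found in 8 genes (34.8%, against 5.33%), the CArG box in Egr2 alone (4.35%, against 1.62%), and the AP-1 site TGANTCA (7.82% of all genes) and the NR4A site AAAGGTCA (1.55%) in none. TATAAA, searched on the sense strand only, was found in Fos, Gadd45b and Gadd45g (13%, against 8.94%). The promoters of 6 genes are shown: Nr4a1, Junb and Npas4 were called with the level of Egr1 in the fits described at the end, and Fos, Dusp1 and Btg2 were not. Capitals mark CRE cores, EGR sites and, on the sense strand, TATAAA.
Nr4a1: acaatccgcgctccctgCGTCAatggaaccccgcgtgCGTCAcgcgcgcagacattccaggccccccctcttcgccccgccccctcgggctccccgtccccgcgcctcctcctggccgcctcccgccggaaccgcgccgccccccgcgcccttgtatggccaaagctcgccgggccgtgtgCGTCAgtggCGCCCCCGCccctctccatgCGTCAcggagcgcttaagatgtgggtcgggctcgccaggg
Junb: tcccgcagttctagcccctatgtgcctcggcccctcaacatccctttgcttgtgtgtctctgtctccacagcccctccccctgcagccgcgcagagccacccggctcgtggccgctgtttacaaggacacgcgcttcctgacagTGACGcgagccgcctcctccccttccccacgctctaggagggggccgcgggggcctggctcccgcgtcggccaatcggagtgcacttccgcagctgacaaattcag
Npas4: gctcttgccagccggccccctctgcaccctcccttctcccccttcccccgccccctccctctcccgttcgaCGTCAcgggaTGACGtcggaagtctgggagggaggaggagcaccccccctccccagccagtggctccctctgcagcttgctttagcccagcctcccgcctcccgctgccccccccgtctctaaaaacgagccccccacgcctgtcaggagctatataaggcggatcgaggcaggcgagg
Fos: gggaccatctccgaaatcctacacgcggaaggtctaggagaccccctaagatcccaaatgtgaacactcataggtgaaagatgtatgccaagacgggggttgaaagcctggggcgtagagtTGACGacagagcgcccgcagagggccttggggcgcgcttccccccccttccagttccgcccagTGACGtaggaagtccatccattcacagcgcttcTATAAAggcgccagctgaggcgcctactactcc
Dusp1: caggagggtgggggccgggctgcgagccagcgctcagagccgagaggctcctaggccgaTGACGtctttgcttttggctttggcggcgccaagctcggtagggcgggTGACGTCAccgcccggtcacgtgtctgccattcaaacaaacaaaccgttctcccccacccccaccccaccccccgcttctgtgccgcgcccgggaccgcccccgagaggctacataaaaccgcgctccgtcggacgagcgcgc
Btg2: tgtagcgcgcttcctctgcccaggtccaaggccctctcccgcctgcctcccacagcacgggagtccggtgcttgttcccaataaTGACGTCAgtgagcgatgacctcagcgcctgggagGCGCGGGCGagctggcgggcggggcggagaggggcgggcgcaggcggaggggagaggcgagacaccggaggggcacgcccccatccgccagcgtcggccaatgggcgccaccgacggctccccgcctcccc
Read 5′ to 3′ toward the gene, these lie at chr15:101266596-101266845 (Nr4a1, plus strand), chr8:84978749-84978998 (Junb, minus strand), chr19:4989972-4990221 (Npas4, minus strand), chr12:85473640-85473889 (Fos, plus strand), chr17:26508473-26508722 (Dusp1, minus strand) and chr1:134079156-134079405 (Btg2, minus strand). Every one of the 6 holds at least 1 CRE core: Nr4a1 has 4, Dusp1 3, and Fos, Npas4 and Btg2 2 each, where a full element counts as 2, and Junb has 1. A match is a run of letters and not a measured binding site.

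Libraries held 14637636 to 17862840 counts, so that even the least abundant member, Atf3, was counted in every library. Levels are given as CPM, counts scaled to a common library size with TMM, a between-library normalization. The GABA neuron genes Gad1 (457 to 893 CPM) and Gad2 (454 to 990 CPM) were high throughout, while Lhx8, a transcription factor of subpallial neurons, was 1.13 CPM in female control 1 and up to 33.5 CPM in the other libraries. RNA of neighbouring structures differed widely within groups. Pmch, which marks melanin-concentrating hormone neurons of the hypothalamus, exceeded 1 CPM in 3 female controls, 1 susceptible female and 1 susceptible male. Slc17a7, which encodes the vesicular glutamate transporter of cortical neurons, ranged from 11.1 to 719 CPM, with the highest values in susceptible female 5, female control 5 (632 CPM) and male control 5 (611 CPM). In RNA from whole tissue, fewer cells of a type and less RNA per cell cannot be told apart.

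Per kilobase of exon, Egr1 was the most abundant member, with 55.8 ± 27.8 CPM per kb (SD, n = 20 libraries). Arc followed at 33.4 ± 18.0, then Jund at 28.8 ± 2.86, Nr4a1 at 26.6 ± 11.3, Egr3 at 24.4 ± 13.5 and Junb at 23.1 ± 9.66 CPM per kb, levels whose spreads overlap. Fos stood at 15.1 ± 4.11 CPM per kb, while Ptgs2, Maff and Atf3 were the least abundant, at 1.12 ± 0.809, 0.945 ± 0.527 and 0.797 ± 0.381 CPM per kb. Most members varied far more between libraries than other genes did. The ratio of the highest to the lowest CPM over the 20 libraries had a median of 5.28 for the 31 members and of 1.71 for 14026 genes with a count in every library. It was largest for Egr3 (17.7), Egr2 (16.1) and Nr4a2 (13.1), and smallest for Jund (1.47), Gadd45g (1.54), Dusp1 (1.75) and Jun (1.76).

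**Figure D1:**
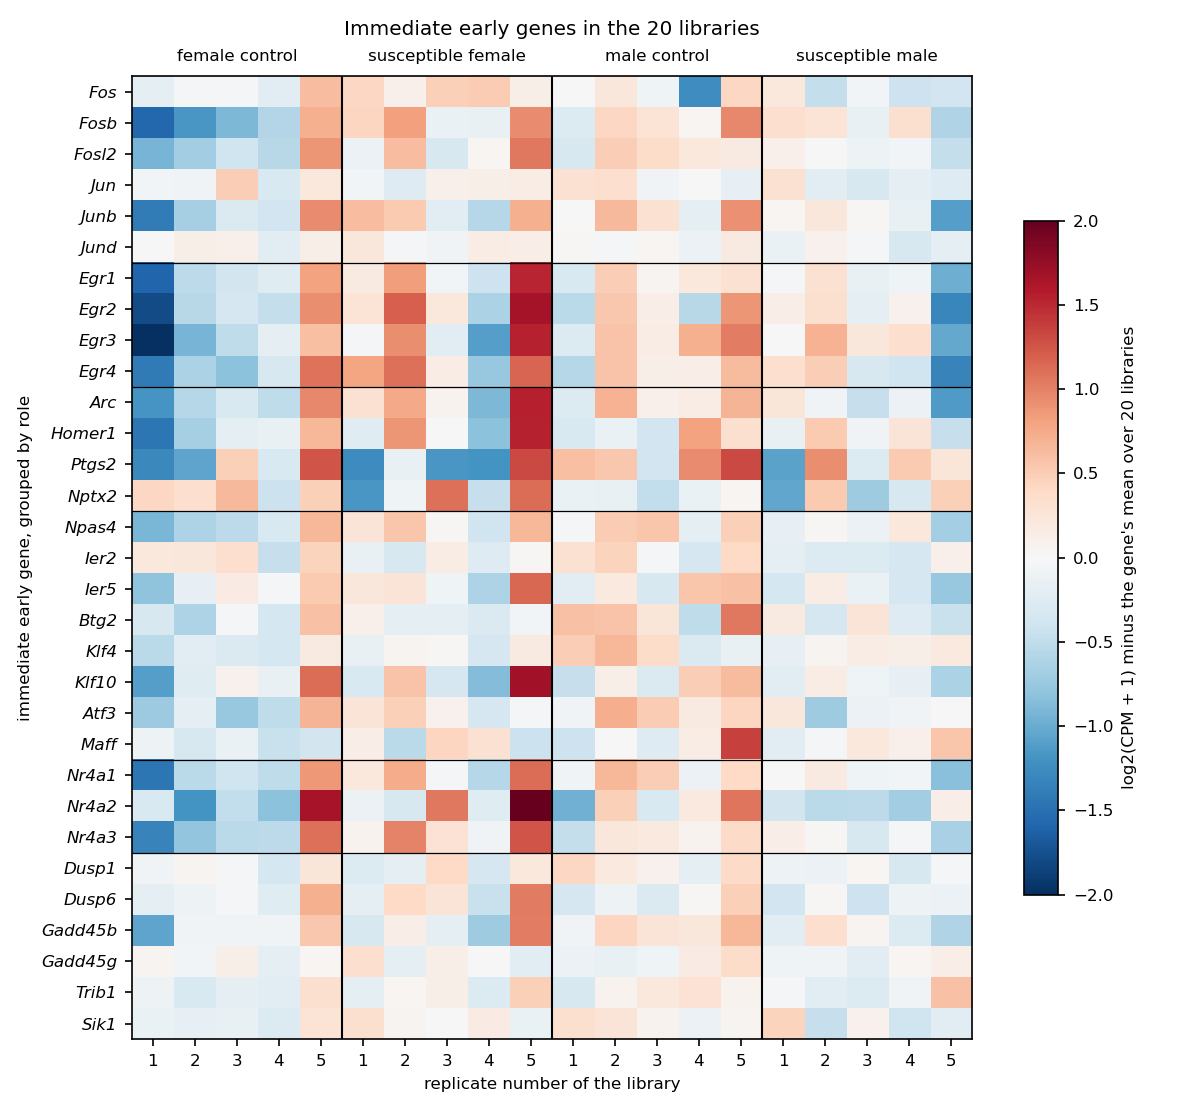
Colour shows log2(CPM + 1) of each of the 31 immediate early genes (rows, grouped by role) in each of the 20 libraries (columns, grouped by label) minus the gene's mean over the libraries, with the scale ending at -2 and 2. Whole columns stand out: susceptible female 5 and female control 5 are high and female control 1 is low for most genes, while Jund, Jun and Gadd45g stay near their means throughout.

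High and low values fell in the same libraries for many members. Susceptible female 5 held the highest of the 20 values in 16 of the 31 genes, and female control 1 the lowest in 17. Within the female controls, replicate 5 was highest in 26 of 31 genes and replicate 1 lowest in 17. Among susceptible females, replicate 5 was highest in 22 and replicate 4 lowest in 20. In males the order was less uniform, with replicate 5 highest in 18 genes among controls and lowest in 16 among susceptible libraries.

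Susceptible mice were set against controls of the same sex to ask which transcripts differ after chronic restraint. In females, estimates stood above 0 for 27 of the 31 genes, with a median log2 fold change of 0.35, against 51.6% of all genes and a median of 0.01. In males, 30 of 31 estimates stood below 0, with a median of -0.30, and Nptx2 was the exception (0.08 ± 0.39), while 47.5% of all genes were above 0. No member passed the test in either sex. None of the 14884 genes tested did either (0% called in females and 0% in males; edgeR quasi-likelihood, smallest adjusted p = 0.774 and 0.405), although 871 and 1439 genes had an unadjusted p under 0.05. DESeq2 called 0 and 13 genes and limma voom 0 and 689, none of them a member. At an unadjusted p under 0.05, Fosb was higher in females (3.12% of all genes were higher and 2.73% lower), and Btg2 and Ier2 were lower in males (5.03% lower, 4.64% higher). The groups overlapped for every member in both sexes, whereas 0.457% of all genes did not overlap in females and 2.44% in males.

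**Figure D2:**
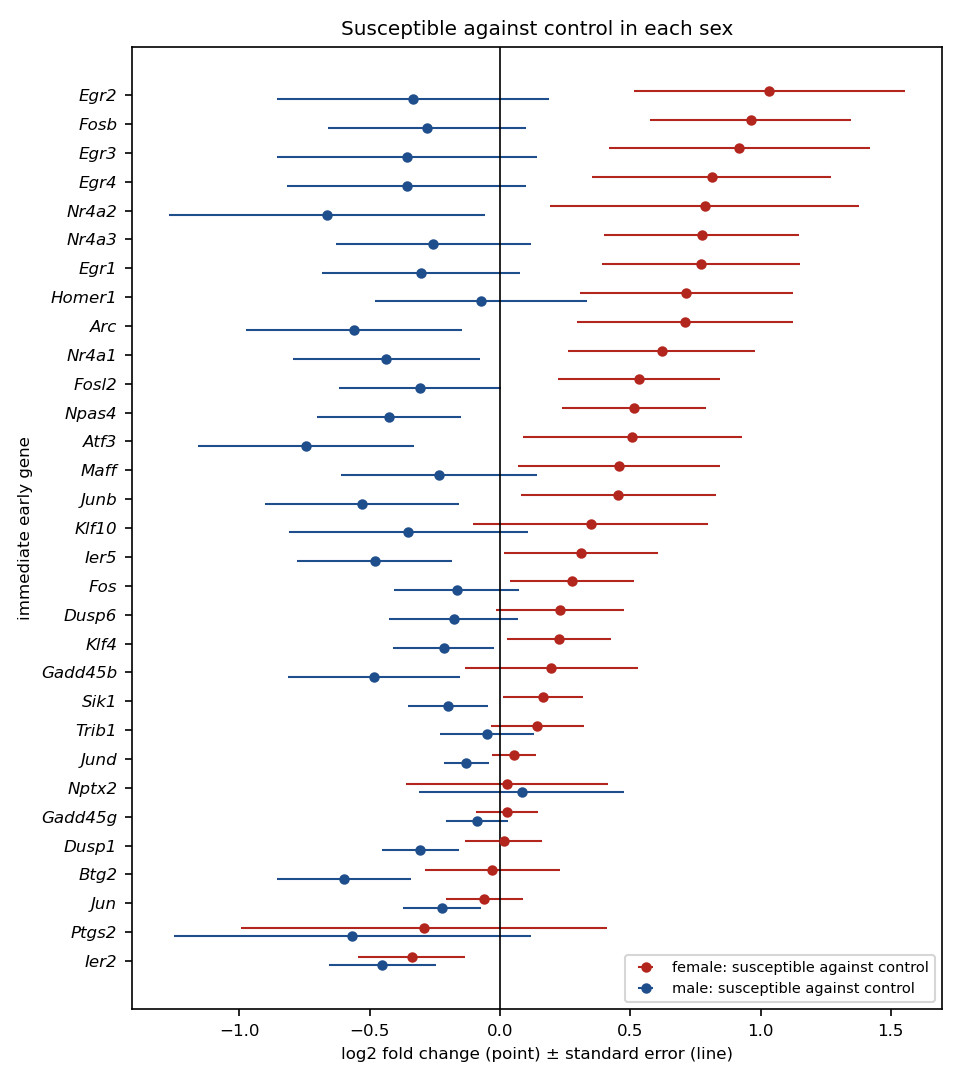
Points give the log2 fold change of susceptible against control libraries for each immediate early gene, with 1 standard error as lines, in females (red) and males (blue), n = 5 libraries per group. Female estimates spread from -0.34 (Ier2) to 1.03 (Egr2), male estimates lie below 0 except for Nptx2, and the lines of most genes are long beside the estimates.

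Female control 5 moved these female estimates. Without it 29 of 31 stood above 0, the median was 0.48, and none was called (edgeR, smallest adjusted p of a member = 0.352). Female control 5 was the highest female control in 26 of the 31 genes, so leaving it out raises most of these estimates by construction. Of the estimates above 0, 22 grew by more than 1.5 times. The largest were Nr4a2 at 1.70 ± 0.54, Egr2 at 1.62 ± 0.51 and Fosb, given below, followed by Egr4 at 1.44 ± 0.41 and Nr4a3 at 1.41 ± 0.28. Arc, Egr1, Atf3 and Nr4a1 were 1.19 ± 0.39, 1.18 ± 0.36, 1.16 ± 0.36 and 1.09 ± 0.31. Fosl2, Junb, Npas4 and Klf10 were 0.996 ± 0.24, 0.95 ± 0.32, 0.88 ± 0.23 and 0.79 ± 0.44. These genes cover the AP-1, EGR and NR4A families and the synaptic effector Arc. Of the genes with smaller estimates, Ier5 was 0.48 ± 0.31, Fos 0.46 ± 0.23, Dusp6 0.45 ± 0.23, Gadd45b 0.42 ± 0.34 and Klf4 0.37 ± 0.20. Sik1 (0.27 ± 0.15), Trib1 (0.27 ± 0.18), Dusp1 (0.09 ± 0.16) and Nptx2 (0.07 ± 0.42) also moved by that factor. Btg2 and Ptgs2 changed sign, to 0.22 ± 0.24 and 0.35 ± 0.71. Other omissions raised or lowered the median. Without the libraries above 300 CPM of Slc17a7, female control 5 and susceptible female 5 among them, 28 of 31 stood above 0, with a median of 0.54. Without susceptible female 4 it was 28, with a median of 0.48. Without susceptible female 5 the count was 21 of 31 above 0, with a median of 0.22. Without female control 1 it was 27, with a median of 0.22. Without the libraries above 1 CPM of Pmch it was 27, with a median of 0.11. That subset kept 2 female controls, female controls 4 and 5, so the high values of female control 5 weigh more in it.

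Among the AP-1 genes, Fos encodes the partner that dimerizes with JUN proteins, and its RNA was 30.1, 33.6, 33.2, 29.1 and 52.7 CPM in female controls 1 to 5. In susceptible females 1 to 5 it was 46.0, 36.7, 47.8, 49.1 and 36.9 CPM. All susceptible values lay above 4 of the 5 controls and below female control 5, and the difference was 0.28 ± 0.24 (edgeR adjusted p = 0.801). Fos was 34.2, 40.1, 32.2, 13.9 and 45.8 CPM in male controls 1 to 5 and 39.8, 24.3, 32.9, 25.4 and 25.8 CPM in susceptible males 1 to 5. These groups overlapped, with the lowest value of all 20 libraries in male control 4 (log2 fold change -0.17 ± 0.24, edgeR adjusted p = 0.844).

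Fosb encodes a FOS relative whose truncated splice form, ΔFOSB, accumulates with repeated stimulation, and the deposited gene count pools both forms. It was 5.73, 7.90, 9.75, 12.4 and 31.9 CPM in female controls 1 to 5. In susceptible females 1 to 5 it was 26.1, 34.2, 17.3, 17.1 and 37.4 CPM. Every susceptible library lay above 4 of the 5 controls, and female control 5 lay among the susceptible values. The log2 fold change of 0.96 ± 0.39 (95% interval 0.15 to 1.78) did not pass over all genes (edgeR adjusted p = 0.774). Without female control 5 it was 1.56 ± 0.31 (edgeR adjusted p = 0.352). In males Fosb was 15.6, 25.6, 23.2, 19.5 and 38.0 CPM in controls 1 to 5 and 24.3, 23.1, 17.1, 23.8 and 12.2 CPM in susceptible libraries 1 to 5. The male groups overlapped from 15.6 to 24.3 CPM (log2 fold change -0.28 ± 0.38, edgeR adjusted p = 0.835).

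Junb, an AP-1 partner that can restrain JUN, was 17.9, 30.3, 39.5, 37.1 and 94.5 CPM in female controls 1 to 5 and 75.2, 70.6, 42.0, 32.6 and 80.5 CPM in susceptible females 1 to 5. The highest female value was again that of female control 5, and the difference was 0.46 ± 0.37. In males Junb had a median of 60.3 CPM in controls (42.5 to 92.3) and of 49.6 CPM in susceptible libraries (22.1 to 56.8), a difference of -0.53 ± 0.37. Fosl2, which encodes the FOS relative FRA2, had estimates of 0.53 ± 0.31 in females and -0.30 ± 0.31 in males. Jund, which is expressed constitutively in many tissues, lay between 38.1 and 56.0 CPM in all 20 libraries, with estimates of 0.05 ± 0.09 in females and -0.13 ± 0.09 in males. Jun lay between 35.0 and 61.6 CPM, with estimates of -0.06 ± 0.15 and -0.22 ± 0.15. Annotated genes overlap Junb (Prdx2, opposite strand), Jun and Jund (antisense transcripts). The labels do not state whether counting used strand, and reads of these pairs cannot be told apart.

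The EGR genes encode zinc finger factors induced by MAP kinase signalling. Egr1 was 74.8, 158, 176, 192 and 396 CPM in female controls 1 to 5 and 258, 404, 217, 170 and 652 CPM in susceptible females 1 to 5. Susceptible female 5 had the highest value of the series and female control 1 the lowest, and the female groups overlapped from 170 to 396 CPM. The log2 fold change was 0.77 ± 0.38 (edgeR adjusted p = 0.774). In male controls 1 to 5 Egr1 was 183, 318, 236, 261 and 279 CPM, and in susceptible males 1 to 5 it was 223, 279, 205, 213 and 115 CPM. Of the susceptible males only replicate 5 lay below all controls (log2 fold change -0.30 ± 0.38, edgeR adjusted p = 0.818). Egr2, Egr3 and Egr4 had female estimates of 1.03 ± 0.52, 0.92 ± 0.50 and 0.81 ± 0.46 and male estimates of -0.33 ± 0.52, -0.36 ± 0.50 and -0.36 ± 0.46.

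The NR4A genes encode nuclear receptors that act without a known natural ligand. Nr4a1 was 30.7, 58.5, 64.5, 60.1 and 158 CPM in female controls 1 to 5 and 99.7, 145, 83.4, 57.3 and 187 CPM in susceptible females 1 to 5. Female control 5 exceeded 4 of the 5 susceptible females, and susceptible female 4 lay among the controls (log2 fold change 0.62 ± 0.36). In males Nr4a1 was 82.1, 137, 121, 79.1 and 113 CPM in controls 1 to 5 and 85.0, 97.3, 81.0, 82.3 and 47.6 CPM in susceptible libraries 1 to 5, and the groups overlapped (-0.44 ± 0.36). Nr4a3 was 14.5, 21.8, 26.1, 26.2 and 83.3 CPM in female controls 1 to 5 and 40.5, 77.0, 47.0, 36.5 and 93.1 CPM in susceptible females 1 to 5. Every susceptible value lay above 4 of the 5 controls (0.77 ± 0.38 in females, edgeR adjusted p = 0.774; -0.26 ± 0.38 in males). Nr4a2 ranged from 5.65 CPM in female control 2 to 74.3 CPM in susceptible female 5, with estimates of 0.79 ± 0.59 and -0.67 ± 0.61.

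Of the other transcription regulators, Npas4 encodes a factor that is selectively induced by calcium entry in neurons. It was 11.5, 14.4, 15.5, 18.1 and 36.2 CPM in female controls 1 to 5 and 27.3, 33.5, 22.9, 16.9 and 36.3 CPM in susceptible females 1 to 5. Female control 5 and susceptible female 5 were the highest and nearly equal, and the estimate was 0.51 ± 0.28. In male controls 1 to 5 Npas4 was 22.0, 32.4, 33.7, 19.8 and 31.9 CPM, and in susceptible males 1 to 5 it was 20.1, 22.9, 20.8, 26.4 and 13.7 CPM. A single susceptible male, replicate 5, lay below all male controls (-0.43 ± 0.28, edgeR adjusted p = 0.644).

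Btg2, an antiproliferative coregulator, departed from this pattern in females. It was 12.1, 9.57, 14.9, 11.8 and 23.3 CPM in female controls 1 to 5 and 16.4, 13.4, 13.4, 12.4 and 14.7 CPM in susceptible females 1 to 5, so that the susceptible values lay inside the range of the controls (-0.03 ± 0.26). In males it was 23.5, 23.2, 18.2, 10.4 and 32.7 CPM in controls 1 to 5 and 17.4, 11.9, 18.5, 12.6 and 10.9 CPM in susceptible libraries 1 to 5. The highest susceptible male, replicate 3, lay just above male control 3 and below 3 of the 5 controls, and the estimate was -0.60 ± 0.26 (95% interval -1.14 to -0.06; edgeR adjusted p = 0.481).

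Ier2 and Ier5, which encode small nuclear proteins, had estimates of opposite sign in females, -0.34 ± 0.20 and 0.31 ± 0.30, and the difference between the genes was not tested. In males they were -0.45 ± 0.21 and -0.48 ± 0.30. Ier2 was 5.98, 6.68, 4.50, 3.50 and 6.42 CPM in male controls 1 to 5 and 3.92, 3.69, 3.67, 3.46 and 5.07 CPM in susceptible males 1 to 5. Susceptible male 5 stood apart from the other susceptible males and inside the control range (edgeR adjusted p = 0.498). Atf3, a stress-induced repressor, gave 0.51 ± 0.42 in females and -0.74 ± 0.41 in males, from no more than 54 counts in any library. The zinc finger genes Klf4 (0.23 ± 0.20 and -0.22 ± 0.20) and Klf10 (0.35 ± 0.45 and -0.35 ± 0.46) and the small MAF gene Maff (0.46 ± 0.39 and -0.23 ± 0.38) had estimates of opposite sign in females and males, each close to its standard error in size or smaller.

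At the synapse, Arc encodes a capsid-like protein that promotes the removal of AMPA receptors. It was 39.4, 61.0, 73.1, 63.6 and 177 CPM in female controls 1 to 5 and 112, 153, 94.9, 48.4 and 269 CPM in susceptible females 1 to 5. Replicate 5 was the highest of each female group, and susceptible female 4 lay below 4 of the 5 controls (0.71 ± 0.41). In male controls 1 to 5 Arc was 74.6, 148, 97.9, 100 and 146 CPM and in susceptible males 1 to 5 107, 86.8, 65.3, 83.9 and 40.9 CPM, with overlap between 74.6 and 107 CPM (-0.56 ± 0.41, edgeR adjusted p = 0.691). Homer1 yields both long scaffold forms and the short activity-induced form Homer1a, which the gene count pools. It was 51.5, 89.5, 125, 128 and 225 CPM in female controls 1 to 5 and 120, 262, 142, 80.0 and 413 CPM in susceptible females 1 to 5, with the highest value of the series in susceptible female 5 (0.71 ± 0.41). In males it was 114, 130, 109, 248 and 177 CPM in controls 1 to 5 and 127, 205, 134, 170 and 103 CPM in susceptible libraries 1 to 5, and these ranges overlapped (-0.07 ± 0.41). Ptgs2, the inducible cyclooxygenase, and Nptx2, a secreted pentraxin that clusters AMPA receptors, had wide errors (-0.29 ± 0.70 and 0.03 ± 0.39 in females, -0.57 ± 0.68 and 0.08 ± 0.39 in males).

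Among the genes of signal feedback and stress sensing, the ratio of the highest to the lowest library was 1.54 for Gadd45g, 1.75 for Dusp1, 1.91 for Sik1, 1.93 for Trib1, 2.88 for Dusp6 and 5.31 for Gadd45b. Dusp1, a phosphatase that inactivates MAP kinases, was 28.9, 31.4, 29.7, 23.5 and 36.2 CPM in female controls 1 to 5 and 25.0, 26.7, 40.4, 23.7 and 35.4 CPM in susceptible females 1 to 5. The female ranges overlapped (0.01 ± 0.15, 95% interval -0.30 to 0.33). In males Dusp1 was 41.0, 34.8, 32.2, 26.3 and 39.7 CPM in controls 1 to 5 and 28.3, 27.9, 31.2, 24.0 and 29.4 CPM in susceptible libraries 1 to 5. All but the lowest male control lay above every susceptible male (-0.30 ± 0.15, edgeR adjusted p = 0.529). Ergic1 and a pseudogene overlap Dusp1, so its reads are subject to the same limit as Junb. In females the estimates were 0.23 ± 0.25 for Dusp6, which acts on ERK, 0.17 ± 0.15 for the kinase gene Sik1 and 0.14 ± 0.18 for the pseudokinase gene Trib1. In males these 3 genes gave -0.18 ± 0.25, -0.20 ± 0.15 and -0.05 ± 0.18. The growth arrest genes Gadd45b and Gadd45g gave 0.20 ± 0.33 and 0.03 ± 0.12 in females and -0.48 ± 0.33 and -0.09 ± 0.12 in males.

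**Figure D3:**
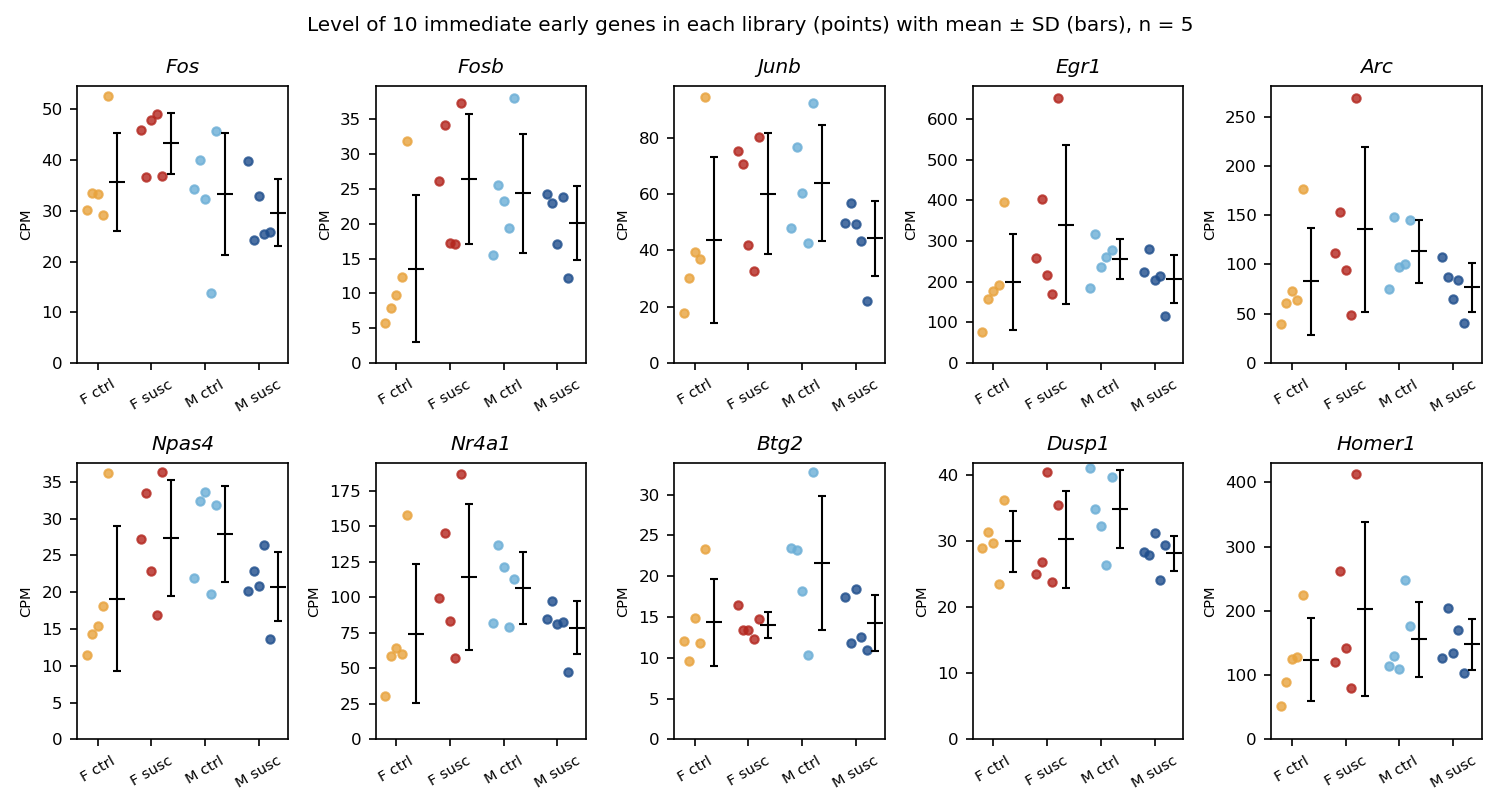
CPM of 10 immediate early genes in each library (points) of the female control, female susceptible, male control and male susceptible groups, with the mean ± SD (bars, n = 5). A single high library widens the bar of the female controls for Fosb, Junb, Egr1, Arc, Npas4 and Nr4a1, and the groups overlap in every panel.

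Whether the stress difference itself differed between the sexes was tested as an interaction. The female minus the male log2 difference was above 0 for 30 of 31 genes (median 0.70), against 52.4% of all genes (median 0.01), and no gene passed (0% called; edgeR quasi-likelihood, smallest adjusted p = 0.587), with 1230 genes at an unadjusted p under 0.05 and 0 called by DESeq2 and by limma voom. Unadjusted p was under 0.05 for Npas4 (0.94 ± 0.39), Fosb (1.24 ± 0.54), Arc (1.27 ± 0.59) and Atf3 (1.25 ± 0.59), where 4.64% of all genes reached that level on the higher side and 3.62% on the lower. The interval of Npas4 ran from 0.11 to 1.77 and that of Arc from 0.03 to 2.51. The median was 0.95 without female control 5 and 0.48 without susceptible female 5. It was 0.37 without the libraries above 1 CPM of Pmch, a subset that kept 2 female controls, female control 5 among them. Without those above 300 CPM of Slc17a7 it was 0.65, and without those above 100 CPM of the choroid plexus gene Ttr 0.705. With the marker scores introduced below as covariates it was 0.62 (endothelial), 0.45 (cortical), 0.24 (striatal) and 0.14 (hypothalamic), and 0.33 with a region score, striatal minus thalamic markers. Over 38 alternatives Npas4 lay between 0.24 and 1.29, Fosb between 0.35 and 1.83 and Arc between 0.02 and 1.74.

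Between the sexes, estimates of male against female controls stood above 0 for 26 of 31 genes (median 0.36, against 49.5% of all genes). Without female control 5 this was 29 of 31 (median 0.76). The median was -0.009 without the libraries above 1 CPM of Pmch, a subset that kept 2 female controls, female control 5 among them. With the striatal, hypothalamic, region and endothelial scores it was -0.07, -0.02, -0.03 and 0.05, and with the cortical score 0.55. It was 0.74 without the libraries above 300 CPM of Slc17a7 and 0.17 without those above 100 CPM of Ttr. None of the members was among the 76 genes called (0.511%). Klf4 came nearest. It was 3.91, 5.13, 4.84, 4.64 and 7.14 CPM in female controls 1 to 5 and 9.09, 10.4, 8.20, 4.88 and 5.49 CPM in male controls 1 to 5. The ranges overlapped, with 3 male controls above every female control (log2 fold change 0.57 ± 0.20, edgeR adjusted p = 0.153). Btg2 (0.59 ± 0.26), Maff (0.85 ± 0.38), Fosb (0.85 ± 0.39) and Atf3 (0.90 ± 0.41) also had an unadjusted p under 0.05 on the higher side, where 10.4% of all genes did (8.84% on the lower side). Maff was 2.04, 1.61, 1.99, 1.40 and 1.54 CPM in female controls 1 to 5, and its difference rested on male control 5 at 7.42 CPM, the other male controls lying between 1.47 and 2.64 CPM. No member separated the groups without overlap (3.89% of all genes did). Calls of members depended on the libraries and the method. Without female control 5, Fosb (1.44 ± 0.31, edgeR adjusted p = 0.0269), Npas4 (0.90 ± 0.23, 0.0418) and Atf3 (1.55 ± 0.36, 0.0306) passed, and the number of genes called was 458, against 76 with all libraries. Female control 5 was the highest female control for Fosb, Npas4 and Atf3, so leaving it out raises their estimates by construction. With limma voom and sample quality weights 10 of the 31 members were called (Fosb, Fosl2, Junb, Egr3, Npas4, Nr4a1, Nr4a3, Btg2, Klf4 and Atf3), where 3324 of all 14884 genes were.

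Estimates of susceptible males against susceptible females stood below 0 for 27 of 31 genes (median -0.39; 44.5% of all genes were above 0). Of all genes 7 were called (0.047%), none of them a member. Jund (-0.20 ± 0.09), Fos (-0.55 ± 0.24) and Nr4a2 (-1.37 ± 0.61) had an unadjusted p under 0.05, as 3.02% of all genes had on the lower side and 3.26% on the higher. Fos was at least 36.7 CPM in every susceptible female and at most 32.9 CPM in 4 of the 5 susceptible males, with susceptible male 1 at 39.8 CPM inside the female range. Jund averaged 50.8 ± 4.52 CPM in susceptible females and 44.2 ± 4.89 CPM in susceptible males (SD, n = 5 each), and the ranges overlapped. No member lacked overlap (0.779% of all genes). The female controls serve 2 of these comparisons, as do the other groups, so their estimates are not independent of each other.

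Each member was then set against the RNA of neighbouring cell types, within groups. For each of 12 lists of marker genes a score, the mean log2 CPM of its genes, was entered beside the 4 group means in an edgeR fit over all genes. These fits were chosen after seeing the data and describe these 20 libraries. With the score of striatal medium spiny neurons, 16 of 31 members were called higher and 0 lower (12.3% and 10.7% of all genes). The steepest among them were Egr3 (1.03 ± 0.14 log2 units per unit of score), Egr2 (0.94 ± 0.20) and Ptgs2 (0.91 ± 0.31), and Egr1 was called at 0.75 ± 0.10 (edgeR adjusted p = 2.04e-05). With the cortical and hippocampal score 15 members were called higher and 0 lower (7.31% and 7.01%), led by Ptgs2 (1.39 ± 0.17) and Nr4a2 (1.02 ± 0.19). Without susceptible female 5 only 5 were called higher, in a fit for which the share of all genes was not computed.

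The other scores of neighbouring neurons ran the opposite way. In some libraries the scores themselves were opposed. The striatal, thalamic and hypothalamic scores were 4.28, 6.74 and 4.66 in female control 1 and 7.94, 4.12 and -0.91 in susceptible female 5. In susceptible female 3 they were 6.78, 6.85 and 0.57. The fits are therefore not independent of each other, and how far the scores overlap was not tested. With the thalamic score 15 members were called lower and 0 higher (12.7% and 12%), and with the hypothalamic peptide score 18 lower and 0 higher (13.5% and 12.3%). Egr3 again gave the steepest slopes (-0.69 ± 0.12 and -0.48 ± 0.08). Oligodendrocyte markers gave 4 members called lower and 0 higher (1.97% and 2.79%), namely Fosb, Dusp6, Klf10 and Ptgs2, a number that was 0 without female control 5 and 13 without male control 5. Microglial markers gave 2 lower, Gadd45g and Maff, and 0 higher (0.935% and 2.59%), but 0 lower and 8 higher without male control 5. The score of subpallial GABA neurons, the main cells of the BNST, gave Nptx2 alone as lower and 0 members as higher (4.09% and 2.37%), but 9 as higher without susceptible female 5. For the fits with 1 library left out, the share of all genes called was not computed, so their counts cannot be set beside it. No member was called in either direction with the endothelial, choroid plexus, astrocyte, meningeal and red blood cell scores (0.202%, 1.79%, 0%, 0.229% and 0.417% of all genes, in this order).

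**Figure D4:**
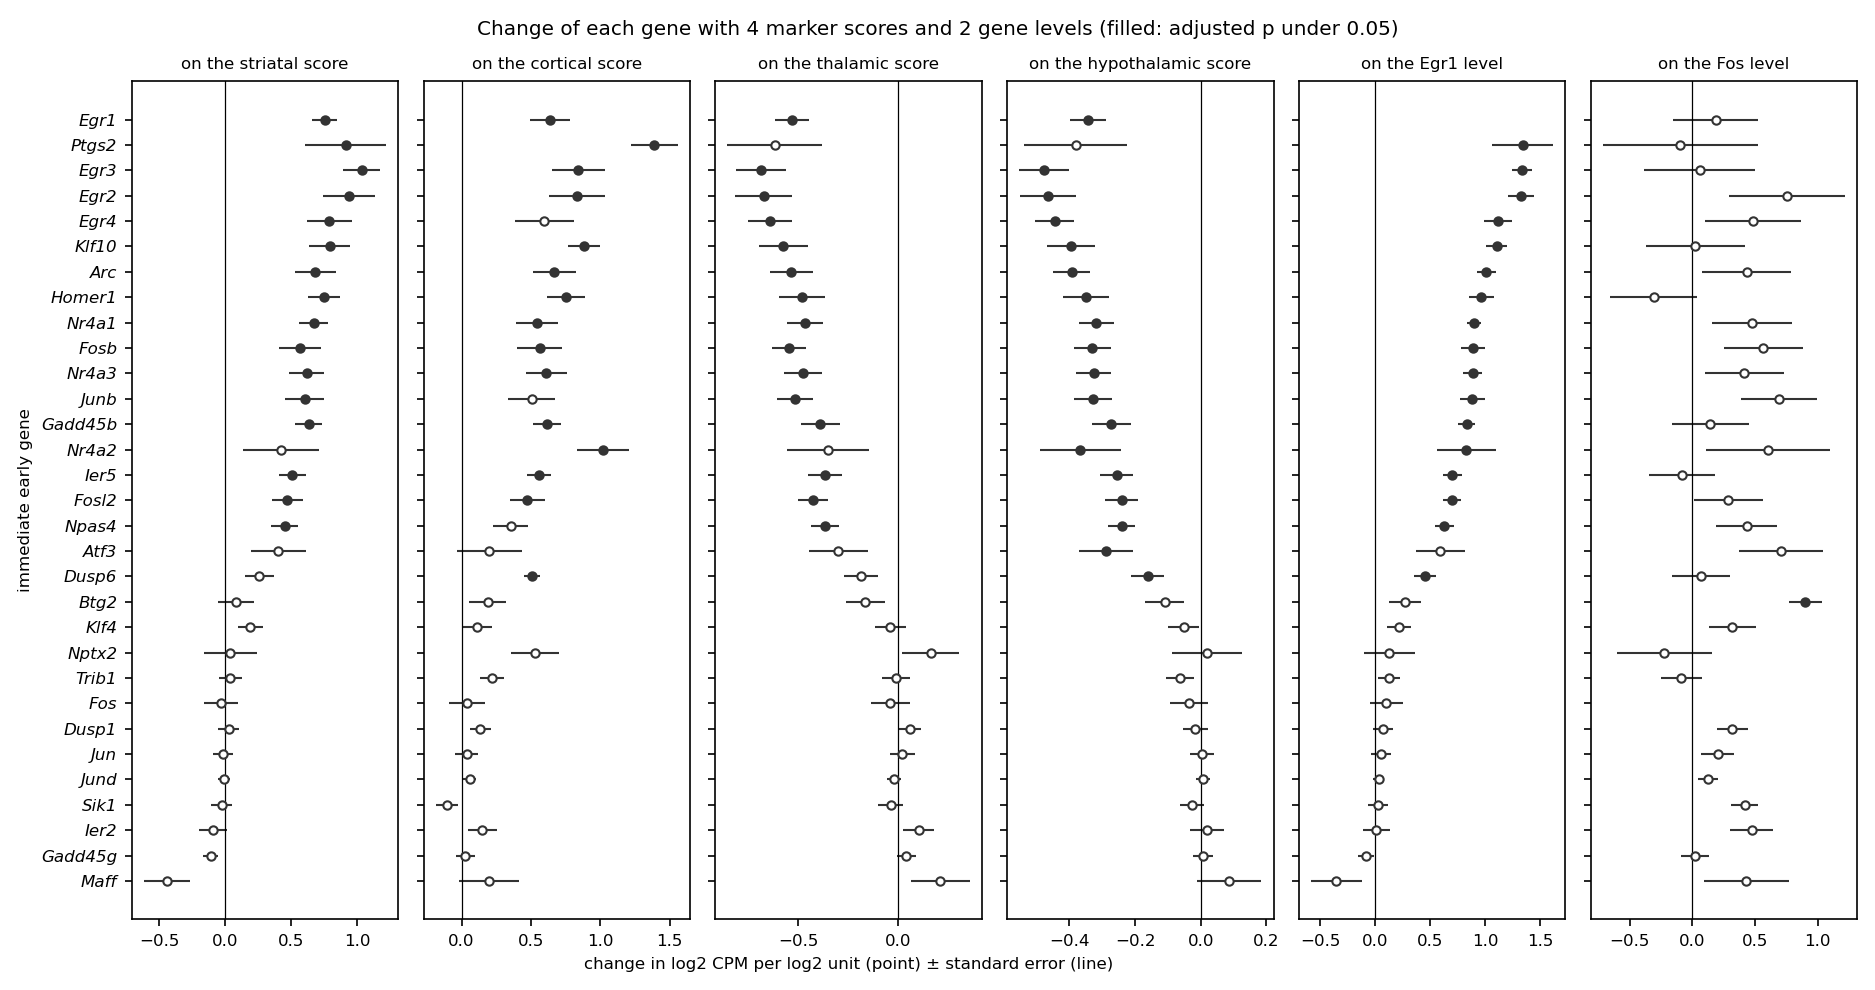
Points give the change in log2 CPM of each immediate early gene per log2 unit of the striatal, cortical, thalamic and hypothalamic scores and of the Egr1 and Fos levels, with 1 standard error as lines, from fits that keep the group means (n = 20 libraries). Filled points had an adjusted p under 0.05. Most genes from Egr1 at the top down to Npas4 have slopes away from 0 in the striatal, thalamic, hypothalamic and Egr1 panels, while Fos, Jun, Jund and Dusp1 lie near 0 in these, and in the Fos panel only Btg2 is filled.

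The mean scores of the compared groups were not equal, and no score passed in 48 tests (exact permutation, smallest adjusted p = 0.381). With 5 against 5 libraries the smallest possible exact permutation p is 0.00794. After adjustment over 48 tests, a single score could not pass even with complete separation, so these tests cannot show that the scores were alike. All 17 striatal markers were measured, with sums of 776 to 4030 CPM in female controls, 1914 to 7622 in susceptible females, 3511 to 6541 in male controls and 1938 to 5570 in susceptible males. The striatal score was 0.93 higher in susceptible than in control females, 0.42 lower in susceptible than in control males and 1.18 higher in male than in female controls (exact 2-sided permutation p = 0.183, 0.254 and 0.0397, n = 5 and 5; adjusted p = 0.481, 0.58 and 0.381 over 48 tests). Of 12 hypothalamic peptide markers 11 were measured, with sums of 13.4 to 483 CPM in female controls, 8.65 to 423 in susceptible females, 12 to 269 in male controls and 31.3 to 224 in susceptible males. Its score was 2.04 lower in susceptible than in control females (exact permutation p = 0.103, adjusted p = 0.41), and Hcrt, one of its defining genes, was at 0 in male control 5, susceptible male 1 and susceptible male 3. All 13 cortical markers were measured, with sums of 467 to 1195 CPM in male controls and 347 to 787 CPM in susceptible males, and the score was 0.74 lower in the latter (exact permutation p = 0.0476, n = 5 and 5; adjusted p = 0.381). With the striatal score in the fit, 18 of 31 members stood above 0 in females (median 0.06), 2 in males (median -0.18), and 14 in male against female controls (median -0.07). With the hypothalamic score the numbers were 18 (median 0.04), 11 (-0.10) and 15 (-0.02). With the cortical score they were 28 (median 0.47), 14 (-0.02) and 27 (0.55). The part of these cells in the group differences was not tested.

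Which members varied together was described in the same way, with the level of 1 member in place of the score. With Egr1, the most abundant member, 17 of the 30 others were called higher and 0 lower (15.4% and 15% of all genes). The slopes of Ptgs2 and Egr3 were both 1.34, with standard errors of 0.28 and 0.09. They were 1.12 ± 0.12 for Egr4, 1.33 ± 0.12 for Egr2, 1.11 ± 0.10 for Klf10, 1.01 ± 0.09 for Arc, 0.96 ± 0.12 for Homer1, 0.90 ± 0.07 for Nr4a1, 0.89 ± 0.11 for Fosb and 0.88 ± 0.11 for Junb. Nr4a3, Gadd45b, Nr4a2, Fosl2, Ier5, Npas4 and Dusp6 followed, from 0.89 ± 0.09 down to 0.45 ± 0.10. The 13 genes not called were Fos, Jun, Jund, Ier2, Dusp1, Btg2, Klf4, Atf3, Gadd45g, Nptx2, Trib1, Sik1 and Maff, of which Atf3 came nearest (0.59 ± 0.23, edgeR adjusted p = 0.0521). The slope of Fos on Egr1 was 0.10 ± 0.15 (edgeR adjusted p = 0.647), that of Dusp1 0.07 ± 0.09 and that of Jund 0.03 ± 0.05.

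With Fos as the reference instead, Btg2 was the single member called (0.90 ± 0.13, edgeR adjusted p = 0.0273), higher, with 0 lower, where 0.00672% of all genes were called higher and 0.0269% lower. That call was lost without male control 1, 4 or 5, without susceptible male 1, 2 or 4, and when the group means were left out of the fit. No member was called with both Egr1 and Fos. The slopes of Fos and of the other members were not compared by a test of their difference.

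**Figure D5:**
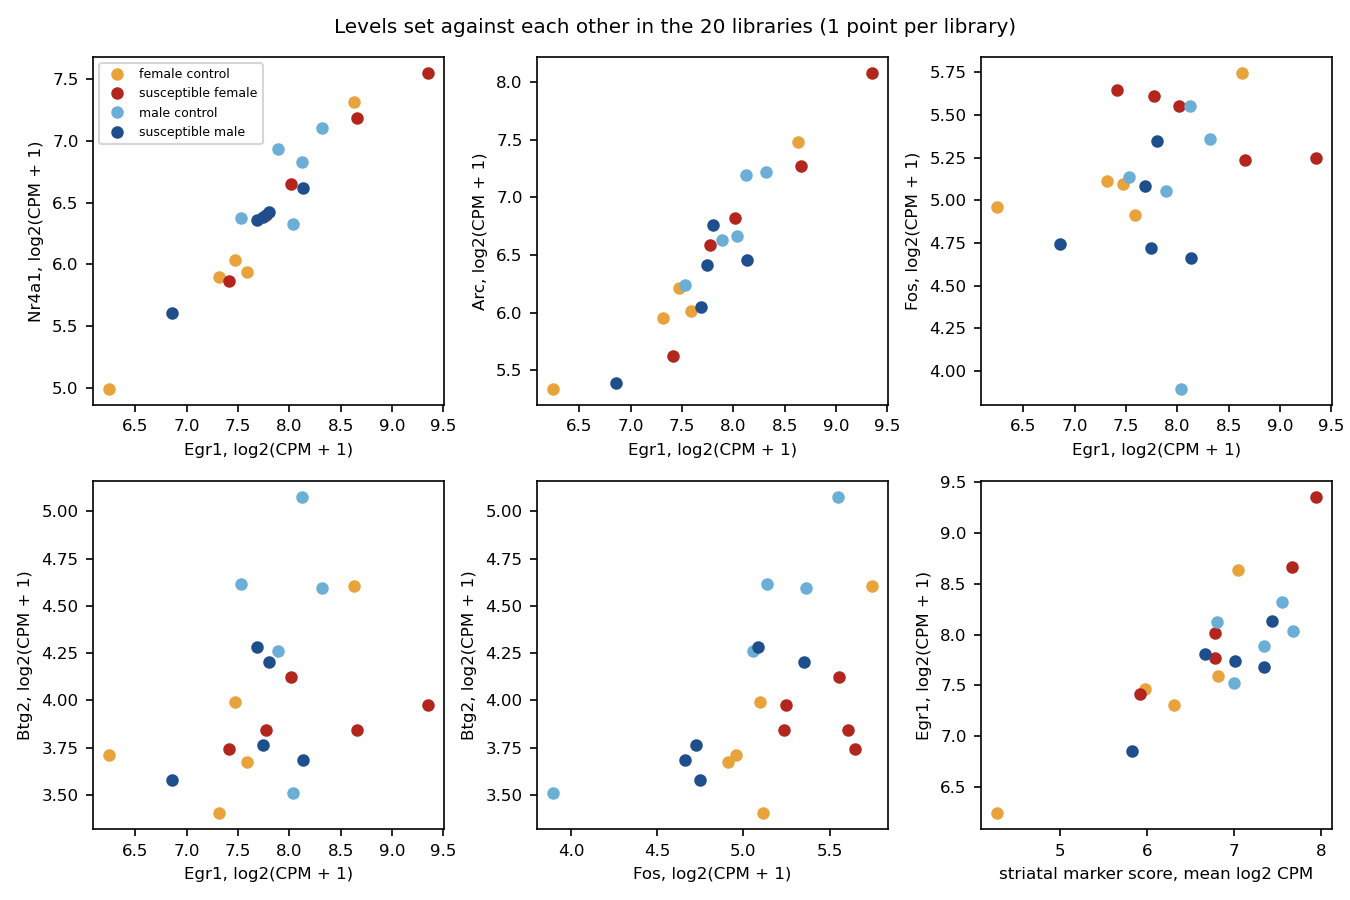
Each point is 1 of the 20 libraries, coloured by group, on log2(CPM + 1) axes, except for the last panel, whose horizontal axis is the striatal marker score. Nr4a1 and Arc lie along a line with Egr1, Fos and Btg2 do not, Btg2 and Fos are high or low together in many libraries, and Egr1 is lowest in female control 1, which also has the lowest striatal score.

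Genes up- and downstream were taken from 3 lists. Of 40 other immediate early genes, 28 stood above 0 in susceptible females (median 0.10) and 18 in susceptible males (median -0.04), and none was called. Of 27 late activity-response genes, which follow the first wave, 15 and 12 stood above 0 (medians 0.10 and -0.10). Of 51 genes of calcium, cyclic AMP and MAP kinase signalling to the nucleus, 37 stood above 0 in females (median 0.09) and 13 in males (median -0.11). None of the 3 lists had a called gene in the 2 stress comparisons, in their difference or between susceptible males and females.

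Among these genes, Sgk1, a kinase induced by glucocorticoids, had the smallest p in both sexes (0.48 ± 0.13 in females and 0.49 ± 0.13 in males; edgeR adjusted p = 0.774 and 0.405). Unlike most members, its estimate had the same sign in females and males. Tiparp, which encodes an ADP-ribosyltransferase of the PARP family, was next in females (0.36 ± 0.13), and Crtc2, a CREB coactivator, in males (-0.27 ± 0.08). The smallest p of the interaction belonged to Crtc2 (0.38 ± 0.12) and the calcium/calmodulin kinase gene Camk2d (-0.49 ± 0.17), and between susceptible groups Sgk1 (0.47 ± 0.13) and Parm1 (0.55 ± 0.17). Klf2, a zinc finger factor prominent in endothelium, was the only gene of these 3 lists that was called: it was higher in male than in female controls, at 14.2 ± 4.07 against 7.73 ± 1.93 CPM (SD, n = 5 each; log2 fold change 0.88 ± 0.19, edgeR adjusted p = 0.0459). The score of 12 endothelial and pericyte markers was 0.50 higher in male than in female controls (exact permutation p = 0.0397, n = 5 and 5; adjusted p = 0.381 over 48 tests), with sums of 273 to 492 CPM and 276 to 322 CPM. Of these 12 markers 11 stood above 0 and 3 were called higher. Named after their values were seen, they were Pecam1 (24.1 ± 4.27 CPM in male and 13.1 ± 1.13 CPM in female controls, edgeR adjusted p = 0.0109), Vwf (30.1 ± 9.96 and 13.7 ± 2.24 CPM, 0.0459) and Ly6c1 (24.2 ± 2.56 and 16.8 ± 1.15 CPM, 0.0474). The part of these cells in the difference of Klf2 was not tested. Of the other marker lists, 1 gene was called in that comparison, the oligodendrocyte gene Ermn, lower at 58.9 ± 16.2 against 105 ± 19.4 CPM (edgeR adjusted p = 0.0464).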

How the data were processed

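RNA of the mouse BNST was sequenced as paired reads on an Illumina HiSeq2500 after Trizol extraction and polyA selection, per the labels' protocols. The deposited values are raw read counts per gene, 1 column per library. The authors used HISAT2, featureCounts and the mm10 build, per the submitters' processing notes; for versions, annotation release and strand setting, nothing is given in the sources used here. Groups and replicate numbers came from the sample titles. Libraries held 14637636 to 17862840 counts, and no pair of libraries within a group agreed within sampling noise.

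Counts were tested with edgeR 4.0.16 (R 4.3.3; TMM scaling, filterByExpr, robust quasi-likelihood, 1 mean per group over all 20 libraries) in 5 comparisons, with Benjamini-Hochberg adjustment over 14884 genes and a threshold of 0.05; the code was tested on simulated data. Standard errors were derived from the F statistic, and 95% intervals used 16 residual degrees of freedom. Marker scores were mean log2 CPM (prior count 2) and were compared between groups by exact 2-sided permutation tests, for which 5 against 5 libraries give 252 splits and a smallest p of 0.00794. Alternatives used limma 3.58.1 (voom), DESeq2 1.42.0, sva 3.50.0, mgcv 1.9.3 (GC and length offsets), other filters and subsets of libraries. Same-numbered libraries correlated at -0.58 to 0.64 in their deviations from the group means, so the numbers were not taken to pair libraries.

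The members and all gene lists were chosen with earlier results of these data known. All 31 members are named. Values in every library, or the range, are given for Fos, Fosb, Junb, Egr1, Arc, Npas4, Nr4a1, Btg2, Dusp1, Homer1 and the 3 members with the smallest p in each comparison. From the 3 lists of other immediate early, late response and signalling genes, those called over all genes are named or, where none was, the 2 with the smallest p. Gene lengths and overlaps came from GENCODE M21 on GRCm38.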

Additional observations from a re-analysis of the deposited data

Results flagged for a closer look

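Within each group of 5 libraries, the gap between the highest or lowest CPM and its neighbour was divided by the range of the group, for each of the 31 immediate early genes. The ratio exceeded Dixon's 95% limit of 0.71 in 19 of 124 groups. Chance alone passes that limit in about 1 in 20 independent groups of normally distributed values. Many of these genes varied together, so that rate is only a rough guide here. Of the 19, 14 were high values of a single library, female control 5.

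In female control 5 the AP-1 genes Fos, Fosb, Fosl2 and Junb stood at 52.7, 31.9, 94.1 and 94.5 CPM. Egr4 was 63.4 CPM and the receptors Nr4a1, Nr4a2 and Nr4a3 were 158, 47.0 and 83.3 CPM. Arc reached 177 CPM and Npas4 36.2 CPM. Dusp6, Trib1 and Sik1 were 55.7, 20.9 and 41.2 CPM, and Atf3 was 3.14 CPM. That library also held 632 CPM of Slc17a7. The part of other cell types in these values was not tested.

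The other 5 values were those of Maff in male control 5 (7.42 CPM), Ptgs2 in susceptible female 5 (11.7 CPM), Jun in susceptible male 1 (54.0 CPM), and Ier2 (5.07 CPM) and Trib1 (25.3 CPM) in susceptible male 5.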

How the results depend on the processing

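No immediate early gene was called in the stress comparison of either sex, in their difference or between susceptible males and females under any of the alternatives run, and estimates of 16, 12, 16 and 19 of the 31 genes kept their sign in all of 28, 28, 38 and 28 settings. Between controls 8 kept it in all of 28. Sign changed in at least 1 setting for 15, 19, 15, 12 and, between controls, 23 genes. Among them Klf10 reached -0.48 in females, 0.37 in males, -0.64 in the difference and -0.74 between controls, Egr3 -0.023, 0.32 and -0.25 in the first 3, Gadd45b -0.41 and Ier5 -0.25 in females, and Egr2 0.36 and Nr4a2 0.26 in males. For the genes described library by library, the reversed stress estimates, none of them called, were the following. The cause of these changes was not tested.

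In susceptible against control females, the log2 fold change with the striatal score as a covariate was -0.013 for Junb, -0.01 for Dusp1 and -0.058 for Homer1, and with the hypothalamic score -0.10 for Junb, -0.10 for Arc, -0.022 for Dusp1 and -0.014 for Homer1. Without libraries over 100 CPM of Ttr it was -0.05 for Dusp1. Btg2 turned to 0.093 with limma voom, to 0.052 with the cortical score and to 0.32 without libraries over 300 CPM of Slc17a7. Leaving out 1 library at a time gave -0.11 to 0.091 for Dusp1 and -0.14 to 0.22 for Btg2.

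In males, Fos was 0.12 and Fosb 0.06 without libraries over 100 CPM of Ttr, and Fos was 0.22 with the endothelial score. With the cortical score Fosb, Egr1 and Homer1 were 0.20, 0.17 and 0.49, and with the hypothalamic score 0.11, 0.091 and 0.39. Homer1 was also 0.14 with limma voom, 0.15 with 1 surrogate variable, 0.046 without libraries over 1 CPM of Pmch, 0.18 with the region score (striatal minus thalamic markers) and 0.22 with the striatal score, and -0.22 to 0.17 with 1 library left out. In the difference between the sexes, Btg2 was -0.013 without libraries over 100 CPM of Ttr, and Homer1 was -0.018, -0.28 and -0.40 with the region, striatal and hypothalamic scores.

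Over all genes, DESeq2 and limma voom called 13 and 689 genes in males. Leaving out 1 library gave 0 to 2 genes in females, the 2 without susceptible female 4. Between controls, the 76 genes became 438 with DESeq2, 3324 with limma voom, 574 with the cortical score, 38 without the count filter, 19 with only these groups fitted, 16 with 1 surrogate variable, 13 with the region score, 10 with the hypothalamic score, 9 without libraries over 300 CPM of Slc17a7, 6 with the striatal or the endothelial score, 5 without libraries over 1 CPM of Pmch, 5 with Ttr limited to 100 CPM, and 6 to 458 with 1 library left out. Members called there numbered 10 with limma voom and 0 to 3 with 1 library left out. Their median reversed to -0.009 without libraries over 1 CPM of Pmch, -0.028 with the region score, -0.074 with the striatal score and -0.017 with the hypothalamic score. Between susceptible groups, the 7 genes became 13 with DESeq2, 1 surrogate variable or without libraries over 1 CPM of Pmch, 11 with limma voom, 4 with only these groups fitted or without libraries over 100 CPM of Ttr, and 6 to 20 with 1 library left out.

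With the replicate number as a block, the number of genes called between susceptible groups was 4, Btg2 in females was 0.012 (0.01 with GC and length offsets), and the median of the members was 0.32 in females and -0.23 in males. Same-numbered libraries matched best in 14 of 60 cases, so the block has no basis in the design.

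With 1 library left out, members called higher ranged from 5 to 20 with the cortical score, 0 to 1 with choroid plexus, 0 to 8 with the microglial score, 0 to 9 with the subpallial score and 0 to 1 with the Fos level. Members called lower ranged from 0 to 1 with the striatal and red blood cell scores and the Egr1 level, 0 to 13 with the oligodendrocyte score, and 0 to 2 with the microglial and subpallial scores. The share of all genes called was not computed for these alternative fits. Whether the members or all genes moved therefore cannot be told from these counts. Without group means, 2 were called higher with the endothelial score, 12 lower with the oligodendrocyte score, 1 lower with the red blood cell score and 0 with the Fos level. With 5 libraries a group, low-count genes such as Atf3 (at most 54 counts) carry the widest counting error.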
